A study of Mus musculus with 21 samples.

Results

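The genes described here are ligands and direct transcriptional targets of bone morphogenetic protein (BMP) signalling: the ligand genes Bmp4 and Bmp7, the target genes Id1, Id2 and Id3, the inhibitory Smad genes Smad6 and Smad7, the pseudoreceptor gene Bambi, and the homeobox genes Msx1 and Msx2. They were chosen by name, as textbook components and readouts of the pathway, with earlier results of these data known. Their counts beside the shares of all genes are therefore a description. All 10 were found among the 24458 genes of the embryoid body table, and all 10 were among the 12472 genes tested. Expression was measured in embryoid bodies, hanging-drop aggregates in which mouse embryonic stem cells (ESCs) differentiate, made from Cxxc5 knockout and from wild type lines. Cxxc5, also called Rinf, is one of the CXXC zinc finger genes, whose products recognise CpG without methylation. The knockout groups, at days 0, 3 and 6, were Rinf -/-, and the groups set against them at the same days were Rinf wild type. Each group had 2 libraries, 12 in all, 1 from each of 2 independent lines per genotype according to the labels. Every line had a mixed 129/C57BL/6 background and was kept on gelatin in serum with LIF before differentiation, the labels name no added agent for any embryoid body group, and which part of Cxxc5 was deleted is not stated in the labels. A separate table holds undifferentiated ESCs of the same genotypes. Labels do not state whether repeats came from separate aggregations, so the p-values measure the spread between these lines and libraries. The fit uses 1 spread per gene over all days, although the replicates of most members differed more at day 6 than before.

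BMPs are secreted dimers that bind type I and type II receptor kinases, which phosphorylate Smad1, Smad5 and Smad9. These enter the nucleus with Smad4 and activate target genes, among them the Id genes and the genes of inhibitors that act back on the receptors. In the early mouse embryo Bmp4 from extraembryonic ectoderm promotes mesoderm and primordial germ cells, and in ESC culture BMP signalling through Id proteins restrains neural differentiation.

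Promoter windows from RefSeq (GRCm38.p6) were searched for 6 of the 10 genes, Bmp4, Id2, Id3, Smad6, Msx1 and Msx2. No window was searched for Bmp7, Id1, Smad7 and Bambi, so the motif counts do not cover these genes. Each window held the 250 bases upstream of the start that the table gives the gene and was searched on both strands for GGCGCC, a GC-rich element bound by Smad1 and Smad5, and for CAGAC, the Smad4 box, which reads GTCTG on the other strand. The motifs can share a C, but no window shown here held both. Shown are Id2 and Id3, whose windows held a motif, and Bmp4 and Msx1, which held neither and had the largest day 6 differences between genotypes. Capitals mark the motifs, and each sequence runs 5′ to 3′ on the strand of its gene: Id2 at chr12:25096093-25096342 (minus strand), Id3 at chr4:136143572-136143821 (plus strand), Bmp4 at chr14:46390670-46390919 (minus strand) and Msx1 at chr5:37824586-37824835 (minus strand).
Id2: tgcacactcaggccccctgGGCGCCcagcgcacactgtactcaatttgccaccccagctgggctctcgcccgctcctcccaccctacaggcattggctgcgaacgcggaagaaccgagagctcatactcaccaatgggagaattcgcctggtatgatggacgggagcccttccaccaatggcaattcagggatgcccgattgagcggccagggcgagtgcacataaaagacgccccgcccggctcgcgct
Id3: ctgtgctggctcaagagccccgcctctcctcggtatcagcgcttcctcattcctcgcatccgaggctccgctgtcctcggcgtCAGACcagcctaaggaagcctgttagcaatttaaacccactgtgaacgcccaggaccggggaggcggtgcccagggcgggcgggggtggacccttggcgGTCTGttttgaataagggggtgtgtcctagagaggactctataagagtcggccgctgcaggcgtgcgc
Bmp4: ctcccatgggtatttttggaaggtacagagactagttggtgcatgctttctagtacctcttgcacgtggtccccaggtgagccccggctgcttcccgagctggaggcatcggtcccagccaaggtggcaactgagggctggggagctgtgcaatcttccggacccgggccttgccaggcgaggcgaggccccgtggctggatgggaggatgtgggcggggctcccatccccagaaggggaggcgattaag
Msx1: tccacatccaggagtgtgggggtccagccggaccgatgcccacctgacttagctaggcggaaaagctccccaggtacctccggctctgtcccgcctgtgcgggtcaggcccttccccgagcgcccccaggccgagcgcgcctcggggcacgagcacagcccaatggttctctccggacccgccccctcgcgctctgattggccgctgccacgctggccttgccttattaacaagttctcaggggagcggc
The Id2 window held 1 GGCGCC, 231 bases before the start, and the Id3 window held CAGAC on either strand, at 167 and 68 bases before it. Of 32851 windows of this length in the table, 9.59% held GGCGCC and 42.2% held CAGAC on either strand. The windows of Bmp4, Smad6, Msx1 and Msx2 held neither, and that of Smad6 reached 26 bases into the annotated span of the gene. CG dinucleotides numbered 11 for Bmp4, 18 for Id2, 18 for Id3, 27 for Smad6, 20 for Msx1 and 16 for Msx2, against a median of 6 over all windows. A match is a description of letters and not evidence of binding, and Smad elements outside these windows were not searched.

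Depth was known only roughly: steps of the low values placed it between 15.1 and 32.5 M reads per library, at which an FPKM of 1 in a 2 kb transcript rests on 30.2 to 64.9 reads. FPKM counts fragments relative to transcript length and library size, so that levels can be compared between genes. Cxxc5 (chromosome 18, 35829379 to 35861693 in GRCm38.p6) had 5.05 to 11.9 FPKM in the 6 knockout libraries, against 25.1 to 52.3 FPKM in the 6 wild type libraries. Summed FPKM of 3 Y-linked genes was also separate, 2.48 to 7.82 in knockout and 14.8 to 30.9 in wild type libraries, and its part in the results was not tested. Pluripotency markers, which define the starting cells, summed to 1200 and 1260 FPKM in knockout and 1275 and 1406 FPKM in wild type at day 0 (6 genes), and markers of feeder fibroblasts (9 genes) to 6.91 to 17.5 FPKM in knockout and 8.67 to 9.18 FPKM in wild type. At day 6 the libraries of a genotype stood apart: wild type replicate 1 differed widely from wild type replicate 2. For knockout against wild type at day 6, the counts of member and pathway calls and the calls that change are therefore also given without that library.

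At day 6, 8 of the 10 genes were called higher in knockout embryoid bodies, with the largest fold changes for Bmp4 and the Msx genes, and 0 were lower, against 17.9% of all tested genes called higher and 34.1% called in either direction. Which members passed changed when 1 library was left out. Their median log2 fold change was 0.70 without wild type replicate 1 of day 6 and 1.83 without wild type replicate 2 of day 6. That of all tested genes was 0.03 and 0.02 in these fits. A fit of the 4 day 6 libraries alone called 0 members and 20 of all tested genes, with 4 members at an unadjusted p under 0.05 by limma. At days 0 and 3, 0 of the 10 passed the test, with 1 and 0 at an unadjusted p under 0.05, against 1829 and 1847 of the 12472 tested genes. In a fit without the day 6 libraries, Id2 passed at day 0, and Bmp4 and Msx2 passed at day 3. The counts of calls at different days therefore do not date the start of a difference. Tested itself, the change in the genotype difference from day 3 to day 6 passed for 0 of the 10. Unadjusted p was under 0.05 for 3 of them and for 3143 of the 12472 tested genes. In both genotypes Bmp4 and Id1 fell and Id2 rose between day 0 and day 3, and most members rose between day 3 and day 6. In such bulk samples, fewer cells of a type and less RNA per cell cannot be told apart.

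**Figure D1:**
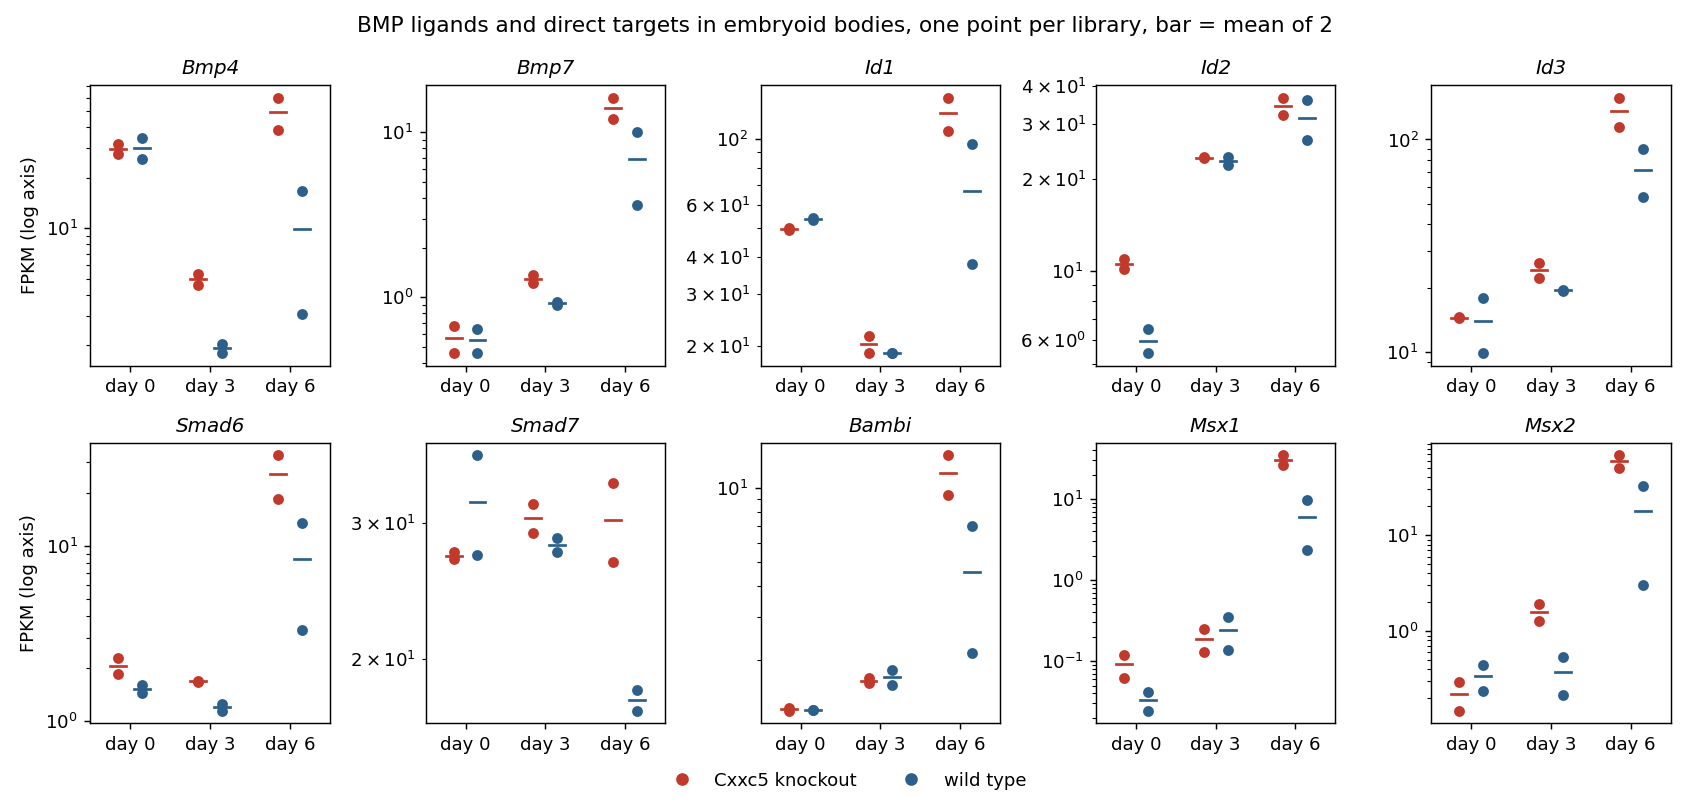
FPKM (log axis) of each gene in every embryoid body library at days 0, 3 and 6, knockout in red to the left of wild type in blue, with a bar at the mean of 2 libraries. At day 6 the knockout libraries lie above both wild type libraries for every gene except Id2.

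Bmp4 (chromosome 14, 46383525 to 46390669) encodes a BMP ligand that induces mesoderm in the mouse embryo. At day 0 it had 27.8 and 31.8 FPKM in knockout, against 34.3 and 25.7 FPKM in wild type, and the groups overlapped. At day 3 it had 4.60 and 5.33 FPKM in knockout, against 1.80 and 2.04 FPKM in wild type, so that both knockout libraries were above both wild type ones. At day 6 it had 38.7 and 60.0 FPKM in knockout, against 3.10 and 16.7 FPKM in wild type, and the lower knockout value was again above the higher wild type one. The mean was 49.3 ± 15.1 FPKM in knockout and 9.89 ± 9.61 FPKM in wild type (SD, n = 2 each), a log2 fold change of 2.53 (SE 0.55, limma adjusted p = 0.00965). The day 3 difference of 1.03 (SE 0.55, limma adjusted p = 0.413) did not pass. Bmp7 (chromosome 2, 172868012 to 172940321), a ligand that can replace Bmp4 in some tissues, was low until day 3, with 0.461 to 1.36 FPKM over the knockout libraries and 0.461 to 0.942 FPKM over the wild type libraries of days 0 and 3. Its day 6 values were 12.0 and 16.2 FPKM in knockout, against 3.64 and 10.1 FPKM in wild type, with no overlap. The log2 fold change was 1.06 (SE 0.33, limma adjusted p = 0.0388, and 0.0577 with a replicate block by line within genotype). On the opposite strand of Bmp4 the table also lists Gm15217, at 2.23 and 2.40 FPKM in knockout and 0.2198 and 0.986 FPKM in wild type at day 6. No source used here says whether counting used strand, so reads of such overlapping genes cannot be told apart.

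The Id genes encode inhibitors of basic helix-loop-helix transcription factors and are the classic immediate targets of BMP Smads. Id1 (chromosome 2, 152736251 to 152737410) had 49.2 and 50.0 FPKM in knockout, against 53.4 and 54.0 FPKM in wild type at day 0, and at day 6 106 and 138 FPKM in knockout, against 38.0 and 96.0 FPKM in wild type. At day 3 it had 21.7 and 19.0 FPKM in knockout, against 19.0 and 19.0 FPKM in wild type. Both knockout libraries were below both wild type ones at day 0, and above them at day 6, where the log2 fold change was 0.99 (SE 0.34, limma adjusted p = 0.0506) and missed the threshold, with 0.33 (limma adjusted p = 0.133) without wild type replicate 1. Id3 (chromosome 4, 136143822 to 136145392) had 115 and 157 FPKM in knockout, against 53.6 and 90.1 FPKM in wild type at day 6, with no overlap. Its log2 fold change was 0.94 (SE 0.29, limma adjusted p = 0.0374). At day 3 it had 22.3 and 26.3 FPKM in knockout, against 19.5 and 19.6 FPKM in wild type, and at day 0 its wild type values of 9.91 and 18.0 FPKM enclosed the knockout values of 14.7 and 14.5 FPKM. Id2 (chromosome 12, 25093799 to 25096092) was the member that did not follow the others at day 6, with 32.2 and 36.6 FPKM in knockout, against 26.7 and 36.02 FPKM in wild type, where the groups overlapped. Its log2 fold change there was 0.14 (SE 0.13, limma adjusted p = 0.437). At day 0, by contrast, Id2 had 10.1 and 10.9 FPKM in knockout, against 6.48 and 5.43 FPKM in wild type. That difference of 0.73 (SE 0.13, limma adjusted p = 0.0575) had the lowest p of the members at that day, with no overlap. By day 3 the groups overlapped, with 23.5 and 23.2 FPKM in knockout and 23.6 and 22.1 FPKM in wild type.

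The inhibitory Smads block receptor kinases and form a negative feedback: Smad6 acts mainly on BMP receptors and Smad7 on both BMP and TGF-beta receptors. Smad6 (chromosome 9, 63953076 to 64022085) had 18.6 and 32.9 FPKM in knockout, against 3.33 and 13.4 FPKM in wild type at day 6. At days 0 and 3 it stayed between 1.68 and 2.30 FPKM in knockout and between 1.15 and 1.60 FPKM in wild type. The groups did not overlap at any day, the spread within each was wide at day 6, and the log2 fold change was 1.70 (SE 0.47, limma adjusted p = 0.0242). Smad7 (chromosome 18, 75367365 to 75395935) had 26.7 and 33.8 FPKM in knockout, against 18.2 and 17.2 FPKM in wild type at day 6, a log2 fold change of 0.73 (SE 0.14, limma adjusted p = 0.00609). Its day 0 values were 26.9 and 27.5 FPKM in knockout, against 36.6 and 27.2 FPKM in wild type, and its day 3 values were 29.1 and 31.7 FPKM in knockout, against 28.7 and 27.5 FPKM in wild type. Alone among the members, Smad7 fell in wild type between day 3 and day 6 by 0.64 on the log2 scale (SE 0.14, limma adjusted p = 0.0104), against a log2 change of -0.02 (SE 0.14, limma adjusted p = 0.936) in knockout.

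Bambi (chromosome 18, 3507011 to 3516404) encodes a transmembrane protein that resembles a type I receptor without a kinase and dampens signalling. It had 9.37 and 13.6 FPKM in knockout, against 2.13 and 7.0 FPKM in wild type at day 6, with no overlap. The log2 fold change was 1.30 (SE 0.36, limma adjusted p = 0.0242). At day 0 it had 1.27 and 1.24 FPKM in knockout, against 1.25 and 1.25 FPKM in wild type, and at day 3 it had 1.61 and 1.69 FPKM in knockout, against 1.58 and 1.82 FPKM in wild type, with overlap on both days. Msx1 (chromosome 5, 37820491 to 37824585) and Msx2 (chromosome 13, 53466881 to 53472780) encode homeobox repressors downstream of BMPs. Msx1 had 26.0 and 34.6 FPKM in knockout, against 2.34 and 9.70 FPKM in wild type at day 6. Its log2 fold change was 2.37 (SE 0.43, limma adjusted p = 0.00494), and at days 0 and 3 it had 0.0616 to 0.247 FPKM in knockout and 0.0245 to 0.347 FPKM in wild type. Msx2 had 50.4 and 68.1 FPKM in knockout, against 3.02 and 32.9 FPKM in wild type at day 6. The groups did not overlap, and the log2 fold change was 2.35 (SE 0.77, limma adjusted p = 0.0436, and 0.051 with the replicate block by line). At day 0 it had 0.149 and 0.299 FPKM in knockout, against 0.237 and 0.445 FPKM in wild type, with overlap. At day 3 it had 1.29 and 1.91 FPKM in knockout, against 0.541 and 0.214 FPKM in wild type, without overlap, and the difference of 0.92 (SE 0.77, limma adjusted p = 0.616) did not pass. Msx1os, which overlaps Msx1 on the opposite strand, had 47.1 and 57.5 FPKM in knockout, against 4.03 and 20.8 FPKM in wild type at day 6. The share of the Msx1 values that comes from Msx1os reads was not tested.

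**Figure D2:**
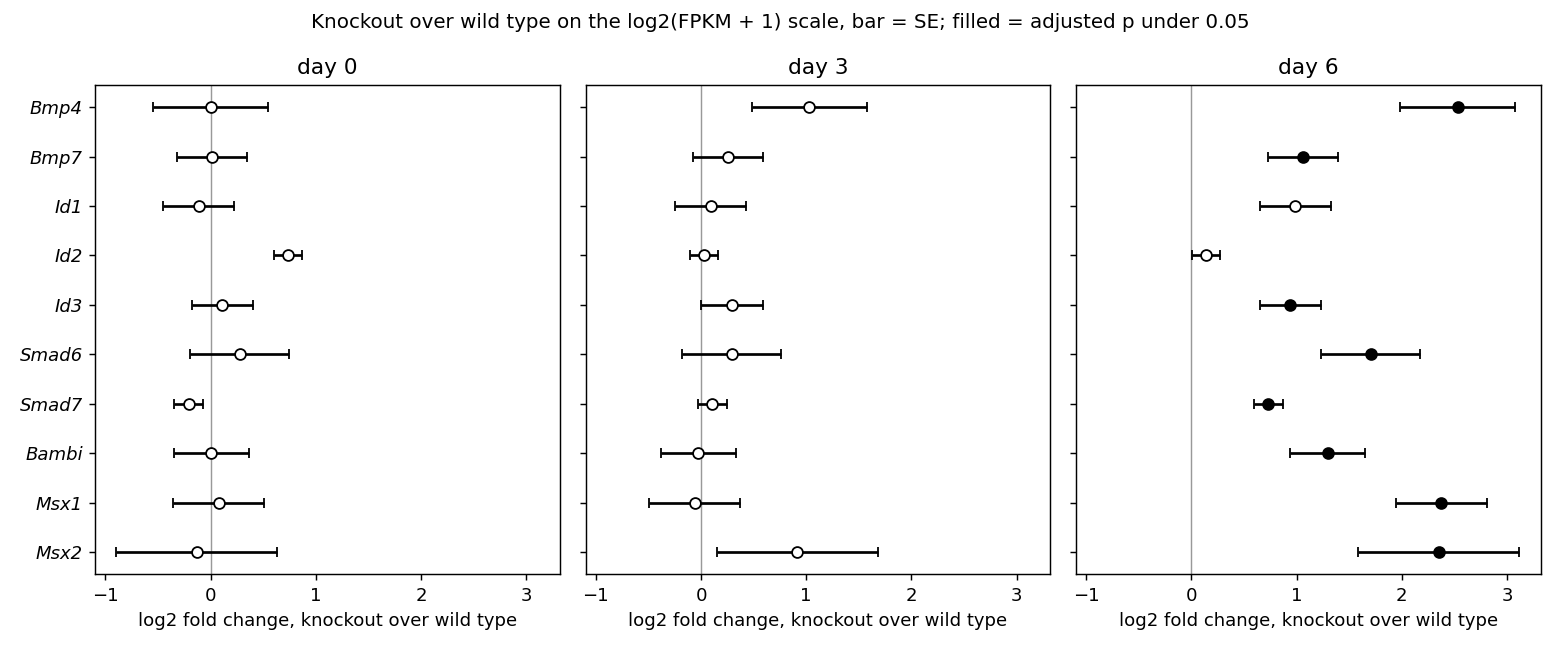
Log2 fold change of each gene, knockout over wild type, on the log2(FPKM + 1) scale, at days 0, 3 and 6, with the SE from limma as bars and filled points where the adjusted p is under 0.05. At day 6 the 8 filled points run from 0.73 for Smad7 to 2.53 for Bmp4, and Id1 and Id2 are open.

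Over all 12472 tested genes at day 6, 34.1% passed in either direction and 17.9% were higher in knockout, against 8 of 10 members higher and 0 lower. The members' median log2 fold change was 1.18, and that of all tested genes was 0.02. Without wild type replicate 1 of day 6, 5 of 10 members were called, all higher, against 10% of all tested genes higher, and the medians were 0.70 for the members and 0.03 for all tested genes. At day 6 the groups did not overlap, with knockout higher, for 9 of the 10 members and for 34.4% of all tested genes. At day 3 this held for 6 of the 10 members (Bmp4, Bmp7, Id3, Smad6, Smad7 and Msx2) and for 29% of all genes, while 1.19% of all genes passed the test. At day 0, where 0.369% of all genes passed, Id2, Smad6 and Msx1 were higher without overlap and Id1 was lower, against 24.3% and 25.5% of all genes. The day 0 and day 3 counts of members called were 0, and at an unadjusted p under 0.05 limma gave 1 member (Id2) at day 0 and 0 at day 3. Over all tested genes it gave 1829 at day 0 and 1847 at day 3. Without the day 6 libraries, Id2 passed at day 0, and Bmp4 and Msx2 passed at day 3. With either wild type library of day 6 left out of the fit, Id2 passed at day 0, as 1 of 10.

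Which members passed at day 6 depended on the libraries. Without wild type replicate 1, whose values were the lowest for all members except Smad7, 5 members passed: Bmp4 at 1.48 (adjusted p = 0.01), Msx1 at 1.53 (adjusted p = 0.00282), Msx2 at 0.82 (adjusted p = 0.0477), Smad7 at 0.77 (adjusted p = 0.0248) and Bambi at 0.62 (adjusted p = 0.0476), all by limma. Bmp7 (0.43), Id3 (0.57) and Smad6 (0.84) then did not pass. Of the fits without 1 library, that without knockout replicate 2 called the fewest members. The members' median log2 fold change was then 0.96, against 0.01 for all tested genes. Without wild type replicate 2 it was 1.83, against 0.02 for all tested genes. Leaving out any 1 of the 2 day 0 knockout libraries or of the 4 day 3 libraries left 5 calls each time, namely Bambi, Bmp4, Msx1, Smad6 and Smad7. Fitting only the 4 day 6 libraries called 0 members, with 4 at an unadjusted p under 0.05, and 20 of all tested genes.

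The 4 day 6 libraries formed the same order for most members. In 8 of 10, all except Id2 and Smad7, knockout replicate 2 was highest, followed by knockout replicate 1, wild type replicate 2 and wild type replicate 1. That order was seen for 17.4% of all tested genes, and the opposite order for 13.5%. Wild type replicate 2 exceeded wild type replicate 1 by 10.9-fold in Msx2, 5.39-fold in Bmp4, 4.14-fold in Msx1 and 4.03-fold in Smad6. The mean of the knockout libraries exceeded wild type replicate 2 alone by 3.12-fold in Msx1, 2.96-fold in Bmp4, 1.92-fold in Smad6 and 1.80-fold in Msx2, and in Id2 it was 0.955 of it. The median gap between the replicates of a day 6 group was 0.415 in knockout and 1.34 in wild type on the log2(FPKM + 1) scale for the members, and 0.13 and 0.141 for all tested genes. At days 0 and 3 the members' median gap was 0.089 and 0.133 in knockout and 0.196 and 0.079 in wild type. The fit shares 1 spread per gene over all groups. For most members, day 6 p-values therefore rest on a spread narrower than that of day 6. Those of days 0 and 3 rest on a wider one. Marker sums moved with that order. Lateral mesoderm markers (6 genes) summed to 290 and 458 FPKM in knockout replicates 1 and 2, against 11.5 and 166 FPKM in wild type replicates 1 and 2. Trophoblast markers (6 genes) summed to 590 and 905 FPKM in knockout, against 158 and 373 FPKM in wild type. Most of the knockout sums came from the keratin genes Krt8 (263 and 421 FPKM) and Krt18 (292 and 444 FPKM). Cdx2 and Gata3 had the same library order. Elf5 was near 0, with 0.180 and 0.177 FPKM in knockout, and Tfap2c, at 17.2 and 11.2 FPKM in knockout, did not have that order. Extraembryonic endoderm markers (7 genes) summed to 203 and 290 FPKM in knockout, against 125 and 187 FPKM in wild type, and feeder fibroblast markers (9 genes) to 17.1 and 31.9 FPKM in knockout, against 9.82 and 15.3 FPKM in wild type. The sums of these 4 lists had the same library order as the 8 members, but some of their genes did not. Among extraembryonic endoderm genes, Foxa2 had 6.41 and 13.3 FPKM in knockout, against 12.3 and 18.2 FPKM in wild type. Dab2 and Sox17 also departed from the order. Among fibroblast genes, Thy1 and Col1a2 departed from it, and Dcn had the opposite order. Every lateral mesoderm gene kept it. Primitive streak markers (7 genes) summed to 491 and 342 FPKM in knockout, against 133 and 324 FPKM in wild type, and pluripotency markers (6 genes) to 253 and 103 FPKM in knockout, against 472 and 241 FPKM in wild type. Neuroectoderm markers (6 genes) ran the other way, with 25.9 and 10.6 FPKM in knockout, against 69.9 and 39.3 FPKM in wild type. Of the marker lists, 5 of 6 lateral mesoderm, 4 of 5 tested trophoblast, 4 of 7 primitive streak, 4 of 7 extraembryonic endoderm and 2 of 5 tested fibroblast genes were called higher. All 6 neuroectoderm genes and 1 of 6 pluripotency genes (Sox2) were called lower, and 0 of any list was at 0 in all libraries. The list medians of the log2 fold change were 2.65 for lateral mesoderm, 1.52 for trophoblast, 0.92 for primitive streak, 0.47 for extraembryonic endoderm and -1.21 for neuroectoderm. Without wild type replicate 1 they were 1.21, 0.85, 0.49, 0.43 and -0.96 in that order. Without knockout replicate 2 they were 2.33, 1.23, 1.18, 0.24 and -0.83, and fewer genes of every marker list were called. The part of these marker genes in the members' differences was not tested.

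**Figure D3:**
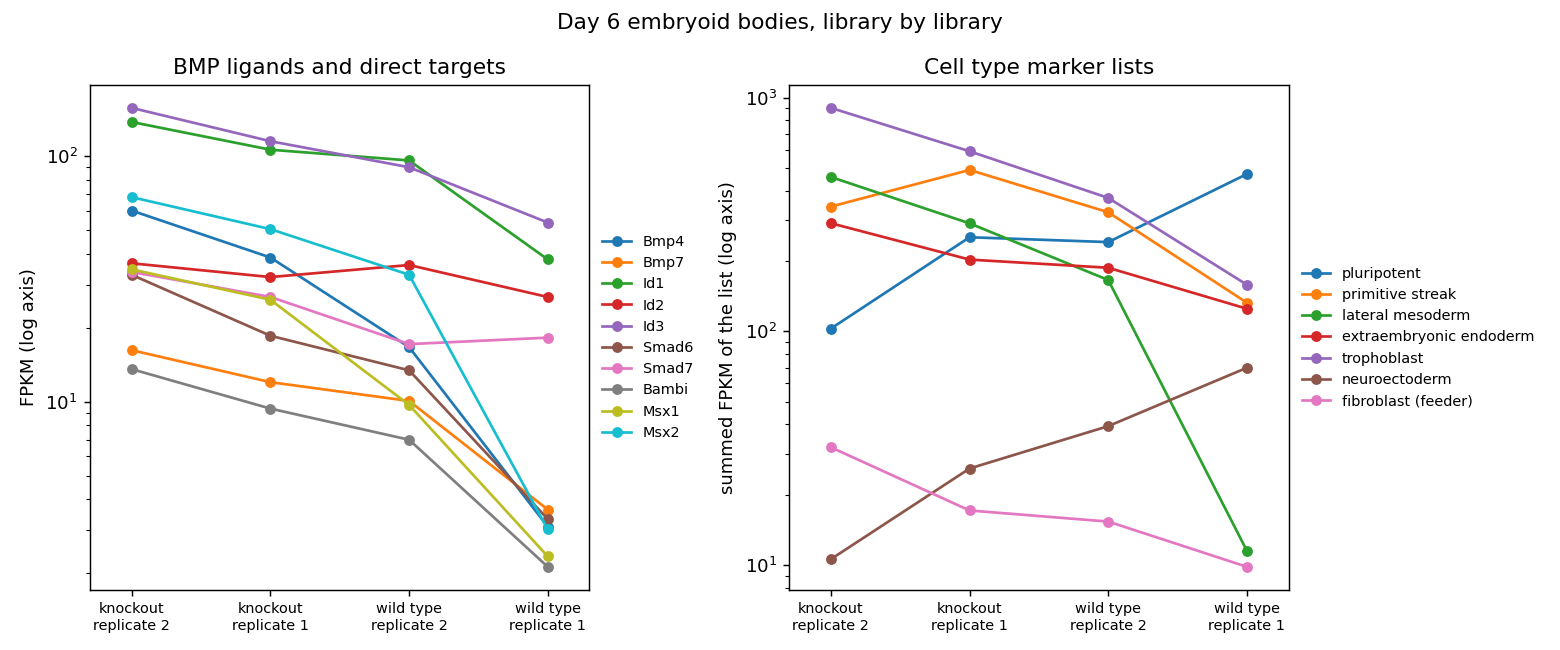
FPKM of the members (left) and summed FPKM of cell type marker lists (right), both on log axes, in the 4 day 6 libraries. Lines join the values of one gene or list, and the members run from knockout replicate 2 down to wild type replicate 1, except Id2 and Smad7.

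Between day 0 and day 3 the members did not move together. Bmp4 fell in both genotypes, by 2.37 in knockout and 3.40 in wild type on the log2 scale (SE 0.55 each; limma adjusted p = 0.00641 and 8.5e-04), to 4.96 ± 0.51 FPKM in knockout and 1.92 ± 0.17 FPKM in wild type at day 3. Id1 fell by 1.25 in knockout (SE 0.34, limma adjusted p = 0.0132) and 1.45 in wild type (SE 0.34, limma adjusted p = 0.00587). Id2 rose by 1.08 in knockout (SE 0.13, limma adjusted p = 2.62e-04) and 1.78 in wild type (SE 0.13, limma adjusted p = 1.48e-05). These 3 were the members called in either genotype, in a comparison that called 52.6% of all genes in knockout and 55.7% in wild type. No other member was called in either genotype. Leaving out 1 library gave -2.460 to -2.272 for Bmp4 in knockout and -3.596 to -3.195 in wild type. It gave 1.028 to 1.129 for Id2 in knockout and 1.671 to 1.890 in wild type. Which members passed depended on the library left out.

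Between day 3 and day 6 the members rose in knockout, where 9 of 10 were called higher (29.2% of all genes were, and 59.1% passed in either direction) and Smad7 did not change beyond the threshold. The increases ran from 0.54 for Id2 to 4.71 for Msx1 and 4.53 for Msx2 on the log2 scale. In wild type 7 were called higher, against 17.4% of all genes, with Smad7 lower (18.4%). Bmp4 (1.54, limma adjusted p = 0.0555) and Bambi (0.89, limma adjusted p = 0.0818) did not pass there. Leaving out 1 library gave wild type changes of 0.489 to 2.599 for Bmp4, 0.214 to 1.569 for Bambi and 1.556 to 4.630 for Msx2. The wild type count of 8 calls depended on the library left out. The difference between the genotypes in this step, tested itself, was positive for all 10 members with a median of 1.11, and 0 of them passed over all genes, against 4.51% of all genes. The nearest was Msx1, at 2.43 (SE 0.61, limma adjusted p = 0.0613). Unadjusted p was under 0.05 for 3 members and for 3143 of the 12472 tested genes. The same test for day 3 against day 0 also called 0 members (0.0401% of all genes), with 1 member, Id2, at an unadjusted p under 0.05 (difference -0.70, SE 0.19, limma adjusted p = 0.422). Of the 12472 tested genes, 956 had an unadjusted p under 0.05 in that test. For day 6 against day 3, leaving out 1 library gave genotype differences of 1.595 to 3.274 for Msx1 and 0.447 to 2.557 for Bmp4. The sign changed in such a fit for Id2 and Msx2, and which members passed depended on the library left out.

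Of 59 further pathway genes in 6 lists, 38 were tested at day 6, and 15 passed, 10 higher and 5 lower. Their share called, 39.5%, lay near the 34.1% of all tested genes, and the lists were not tested against each other. When wild type replicate 1 of day 6 was left out, 12 passed (31.6%, against 20.6% of all tested genes), 8 higher and 4 lower. Among other ligands, 2 of 3 tested were higher: Bmp2, with 15.4 and 24.1 FPKM in knockout against 2.91 and 13.2 FPKM in wild type (1.44, SE 0.48, limma adjusted p = 0.0477), and Bmp5, with 8.42 and 15.8 FPKM in knockout against 1.08 and 6.54 FPKM in wild type (1.67, SE 0.50, limma adjusted p = 0.0336). In the fit without wild type replicate 1, Bmp2 was at 0.52 (limma adjusted p = 0.135) and Bmp5 at 0.74 (limma adjusted p = 0.106). Bmp2 also missed the threshold with the replicate block by line (adjusted p = 0.0516). Gdf3, the most abundant of them by the mean over all days, did not pass (-0.93, limma adjusted p = 0.0786). At day 6 it had 4.42 and 2.12 FPKM in knockout, against 11.1 and 4.10 FPKM in wild type. Of 8 receptors and coreceptors tested, 1 was lower, the activin and BMP type II receptor Acvr2a (-0.40, limma adjusted p = 0.011), with the abundant Bmpr1a at 31.7 and 34.7 FPKM in knockout and 37.5 and 43.4 FPKM in wild type. Of the 3 BMP Smads tested, Smad5 was lower, at 10.8 and 11.3 FPKM in knockout against 14.8 and 15.5 FPKM in wild type (-0.42, SE 0.06, limma adjusted p = 0.00194), and the shared partner Smad4 was not called (-0.18). Of 9 secreted inhibitors tested, Cer1, an antagonist of Nodal and BMP, was lower, with 1.60 and 3.91 FPKM in knockout against 13.2 and 17.4 FPKM in wild type (-2.18, SE 0.26, limma adjusted p = 8.86e-04), while the more abundant Twsg1 was not called (-0.19). Among 6 intracellular regulators Smurf1, a ubiquitin ligase for Smads, was higher (0.33), and the Smad corepressor Skil (-0.63) and the antiproliferative gene Tob1 (-0.35) were lower. In the fit without wild type replicate 1, Skil (-0.46, limma adjusted p = 0.0794) and Tob1 (-0.24, limma adjusted p = 0.0647) did not pass, while Eng (0.49, limma adjusted p = 0.0251) and Twsg1 (-0.29, limma adjusted p = 0.0454) did.

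Of 9 tested genes listed as responsive to BMP in other contexts, 7 were higher at day 6 and 0 lower, against 17.9% of all tested genes higher, with a list median of 1.40 against 0.02 over all tested genes. This list too was chosen with earlier results of these data known, so its counts are a description. The largest was Hand1, a heart and extraembryonic mesoderm factor, with 137 and 236 FPKM in knockout against 2.67 and 74.6 FPKM in wild type (3.44, SE 1.08, limma adjusted p = 0.0379). Next were Tbx20 (2.71), Tbx2 (2.33), Gata2 (1.67), Gata3 (1.40), Dlx3 (1.14) and Hey1 (0.79, limma adjusted p = 0.0494). Without wild type replicate 1 of day 6, 6 of the 9 passed, against 10% of all tested genes higher, and the list median was 0.84. Hand1 was then at 1.26 (limma adjusted p = 0.0207), Tbx20 at 1.36, Tbx2 at 1.42, Gata2 at 0.84, Gata3 at 0.85 and Dlx3 at 0.73, and Hey1 at 0.27 (limma adjusted p = 0.109) did not pass. Hand1 and Tbx20 also stand in the lateral mesoderm marker list and Gata3 in the trophoblast list, so these counts share genes with the marker sums. At days 0 and 3, limma called 0 of the 38 tested genes in these lists, with 3 and 4 at an unadjusted p under 0.05. Of all 12472 tested genes, 1829 and 1847 had an unadjusted p under 0.05 on these days. Without knockout replicate 2 of day 6, 0 of the 9 responsive genes passed, with 5 at an unadjusted p under 0.05, and 4 of the 38 did (Acvr2a, Cer1, Smad5 and Tob1). The call of Bmp2 held in 4 of 23 alternatives, that of Bmp5 in 9 of 23, that of Hey1 in 4 of 24, and that of Hand1 in 11 of 24.

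**Figure D4:**
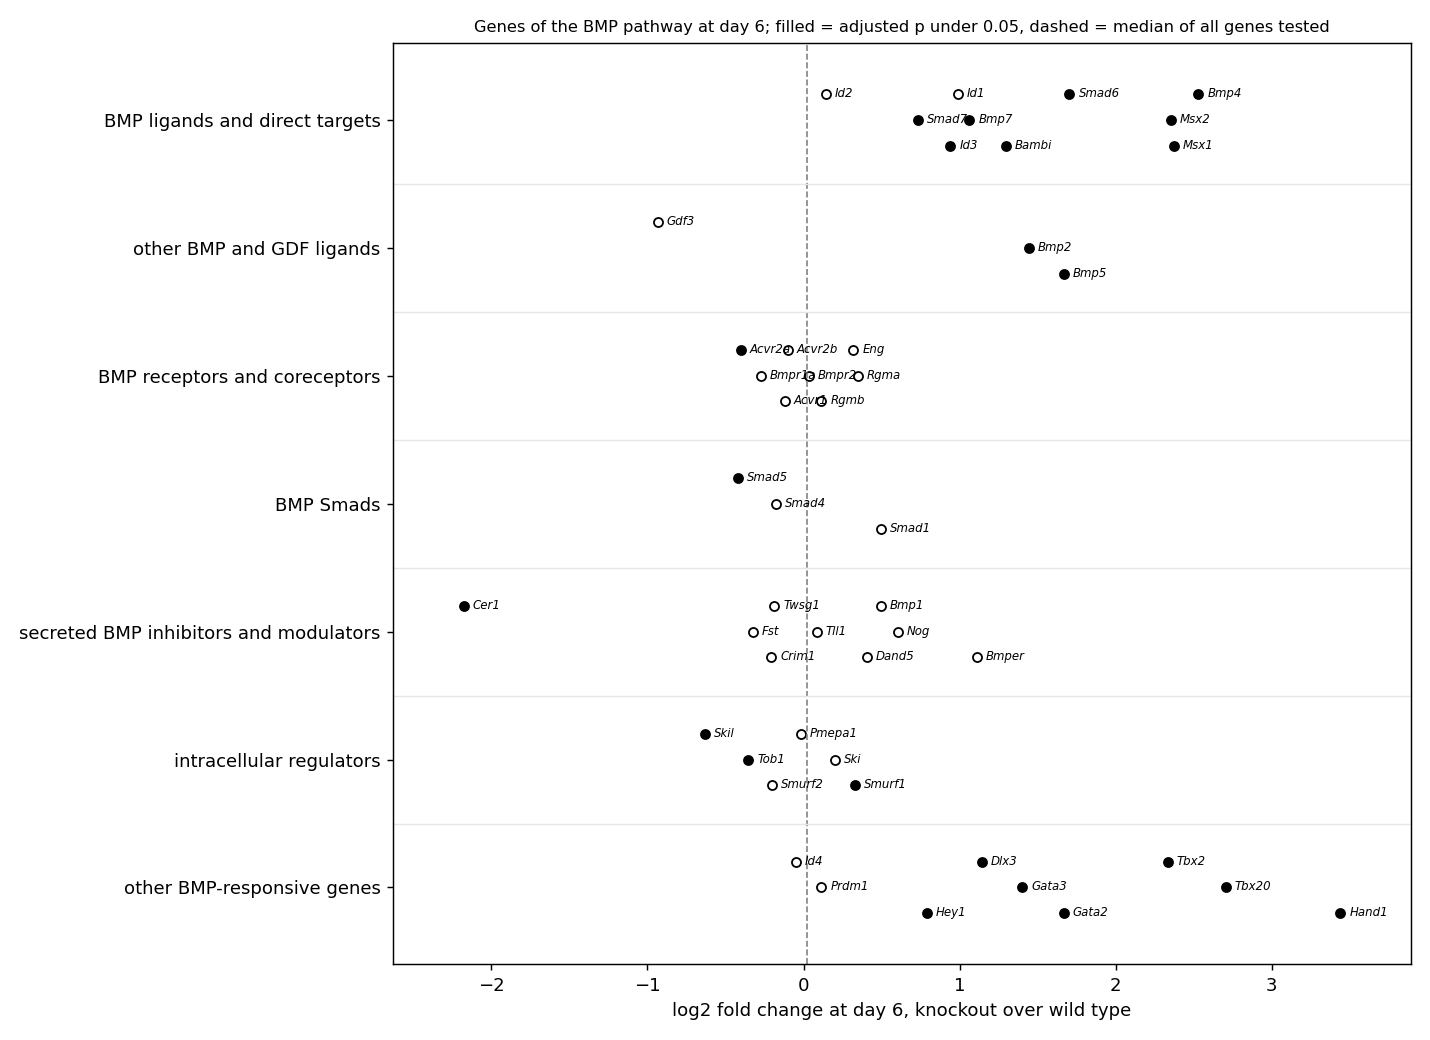
Log2 fold changes at day 6, knockout over wild type, for the members and 6 lists of other pathway genes, with filled points where the adjusted p is under 0.05 and a dashed line at the median of all tested genes, 0.02. Bmp2, Bmp5 and 7 of the 9 BMP-responsive genes are filled to the right of the line, and Gdf3 is open to its left at -0.93.

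Profiles across the 12 libraries were compared by the root mean square difference of centred log2(FPKM + 1) values, in which 0 would mean the same profile. Nearest to Bmp4 were Tbx3 (0.534), Cyp2s1 (0.631) and Parvb (0.636), whose values were also lower at day 3 than at day 0 and day 6 in both genotypes. Nearest to Bmp7 were Nkd1 (0.171), Tmprss2 (0.185) and Ablim1 (0.207). Nearest to Id1 were Fbln2 (0.287), Fn1 (0.298) and Ndrg1 (0.311). Among the members themselves the closest were Bmp7 and Id3, at 0.251, and the farthest were Smad7 and Msx2, at 2.26.

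The ESC table, made from undifferentiated cells sequenced as paired reads, gives 3 entries per genotype where the labels name 2 samples per genotype. Its entries could not be matched to samples, so its values are given by condition with no test and no comparison with the embryoid body values. Cxxc5 had 4.85 to 5.69 FPKM in knockout, against 23.2 to 25.6 FPKM in wild type. All 10 members overlapped between the conditions. Bmp4 had 23.1 to 25.5 FPKM in knockout, against 19.7 to 31.8 FPKM in wild type, Id1 had 45.2 to 57.6 FPKM in knockout, against 54.1 to 63.9 FPKM in wild type, and Smad7 had 29.8 to 33.9 FPKM in knockout, against 31.2 to 46.9 FPKM in wild type. Id2, the member nearest to the threshold in day 0 embryoid bodies, had 4.81 to 7.75 FPKM in knockout, against 2.54 to 6.75 FPKM in wild type. Msx1 rested on 3 to 6 fragments in knockout and 2 to 4 fragments in wild type, so its levels there cannot be compared at this depth.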

How the data were processed

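The authors deposited FPKM values of 12 embryoid body libraries. Per the labels' protocols, reads were single-end, adapters were removed by Trim Galore 0.4.1, and TopHat2 2.0.13 mapped them to mm10. Cufflinks 2.2.1, Cuffdiff and HTSeq 0.6.1 are named without a role, per the submitters' processing notes. No source used here names the annotation. In the deposited ESC table, from paired reads, FPKM stand beside estimated counts of raw fragments, which served only for depth.

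Each of the 12472 genes with mean FPKM of 1 or more was tested on log2(FPKM + 1) by limma 3.58.1 (R 4.3.3), with 1 mean per genotype and day over all 12 libraries, a variance trend and Benjamini-Hochberg adjustment over these genes. An adjusted p under 0.05 is called. Fold changes on this scale understate the change of low genes. With 2 libraries against 2, an exact permutation test gives at least 0.333. The fit was tested on simulated data with 1 spread per gene over all days. That test therefore cannot show how the wider spread at day 6 affects the day 6 calls. Members and lists were chosen with earlier results of these data known. Genes named beside them are pathway genes called between genotypes, the most abundant of each list by the mean over all 12 libraries, and the 3 genes nearest in profile to Bmp4, Bmp7 and Id1. The planned ESC test was not run, because entries could not be matched to samples. ChIP samples were not analysed here.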

Additional observations from a re-analysis of the deposited data

How the results depend on the processing

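Fold changes and counts of calls were recomputed under up to 25 alternatives, 12 of which leave out 1 library. Each day 6 fold change of a member had 23 or 24 of them, and marker sums, overlap counts and profile distances were not recomputed. Of the recomputed values of called members, 665 stayed past the threshold, 80 lost it and 0 changed sign. Of the members not called, 60 passed and 33 changed sign. The cause of these changes was not tested, except that settings with fewer libraries have fewer residual degrees of freedom.

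For knockout against wild type at day 6, where 8 members were called, 5 were called with no filter on low values, 5 with library weights, 4 after removal of GC and length trends and 0 with only the days compared, and leaving out 1 library gave 2 to 10. Msx1 and Smad7 were called in 23 of 24 alternatives, Bmp4 in 22, Bambi in 21 of 23, Smad6 in 20 of 24, Id3 in 12, Msx2 in 7 and Bmp7 in 6 of 23. At day 0, where 0 were called, Id2 alone was called (1 member) with pseudocounts of 0.1 and 0.5, a mean FPKM of at least 5, library weights and without the day 6 libraries, and leaving out 1 library gave 0 to 1. At day 3, also 0, library weights called 1 (Bmp4), and leaving out the day 6 libraries called 2 (Bmp4 and Msx2). For day 3 against day 0, 3 were called in each genotype, where the full fit called 52.6% of all genes in knockout and 55.7% in wild type. In knockout, library weights called 6, only the days compared 7, without the day 6 libraries 7, and leaving out 1 library 2 to 6. In wild type, only the days compared and without the day 6 libraries each called 5, and leaving out 1 library 3 to 5. For day 6 against day 3 in wild type, 8 were called, 5 with only the days compared and 3 to 10 without 1 library. The genotype difference at day 6 against day 3 called 0, and 1 (Msx1) with quantile normalization or library weights. Without 1 library, which members passed depended on the library left out. Over all genes, the day 6 count of 4249 lay between 20 (only the days compared, 25% of them higher) and 4868, against 52.4% higher in the full fit and 42.4% without knockout replicate 2.

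Values that changed sign were uncalled in the full fit. In knockout against wild type at day 0 they were Bmp7 (-0.043 with quantile normalization, -0.010 after removal of GC and length trends) and Bambi (-0.028 with quantile normalization), and leaving out 1 library gave -0.202 to 0.199 for Bmp4, -0.087 to 0.108 for Bmp7, -0.290 to 0.512 for Id3 and -0.003 to 0.015 for Bambi. At day 3 Bambi was 0.041 after removal of GC and length trends, and leaving out 1 library gave -0.001 to 0.181 for Id1, -0.012 to 0.075 for Id2, -0.092 to 0.040 for Bambi and -0.183 to 0.062 for Msx1. At day 6 Id2 ran from -0.068 to 0.351. For day 3 against day 0, Smad7 in knockout was -0.009 after removal of GC and length trends, Msx1 in knockout -0.104 and Msx2 in wild type -0.243 with quantile normalization, and without 1 library Smad7 ran from -0.371 to 0.043 and Msx2 from -0.139 to 0.204 in wild type. For day 6 against day 3 in knockout, Smad7 was 0.033 with quantile normalization and -0.179 to 0.148 without 1 library. The genotype difference at day 3 against day 0 for Smad6 was -0.045 after removal of GC and length trends, and without 1 library it ran from -0.093 to 0.120 for Smad6, from -0.217 to 0.586 for Id3 and from -0.098 to 0.034 for Bambi. The genotype difference at day 6 against day 3 ran from -0.099 to 0.320 for Id2 and from -0.10 to 2.974 for Msx2.

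Labels number the replicates, and whether equal numbers pair the samples was checked. Deviations of same-numbered libraries from their group means correlated between -0.081 and 0.243. The highest was between knockout and wild type at day 6, and the next was 0.083, between the genotypes at day 3. The main fit has no block. Whether same-numbered day 6 libraries shared more than a number was not tested. Labels give 2 lines per genotype without tying a number to a line. With a replicate block by number, 9 members were called at day 6, and with a replicate block by line within genotype 6, without Bmp7 and Msx2. Under the block by line, the day 6 against day 3 change of Id2 in wild type no longer passed (0.43, adjusted p = 0.0671), and the day 3 against day 0 change of Id3 in knockout did (0.70, adjusted p = 0.0269). Over all genes these blocks called 4206 and 3679. Depth limits Msx1 and Msx2 at days 0 and 3. The ESC comparison was not run.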
